A study of Caenorhabditis elegans with 12 samples.

Results

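The vacuolar ATPase and the lysosomal proteases of Caenorhabditis elegans were described in whole worms with and without a germline, as adults of day 1 (D1) and day 6 (D6). The genes were chosen by name: every gene named vha-, asp- or cpr- with a number, together with cpl-1, cpz-1, lmp-1 and cup-5. Of 49 such names, 43 reached 1 FPKM in at least 3 of the 12 libraries and make up the set, among 13614 genes over that level and 20257 genes listed. FPKM counts fragments per kilobase of a gene's length, relative to the total of its library. The set held 20 vha genes, 12 asp genes, 7 cpr genes and the 4 single names. The 6 names under the level were asp-7, asp-9, asp-15, asp-16, asp-18 and asp-19, none of which passed 0.35 FPKM in any library. The members under 1 FPKM in some libraries were cpr-2, at or over 1 FPKM in 6 libraries, vha-18, in 8, and asp-17, in 11.

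There were 4 groups of 3 libraries: wild type (strain N2) at D1, wild type at D6, glp-1(e2141) at D1 and glp-1(e2141) at D6. The allele e2141 is a temperature-sensitive mutation of a Notch receptor that keeps germline stem cells dividing. Whole worms were sampled, fed OP50 bacteria and raised at 25 °C to D1, per the labels. The D6 animals were then held at 20, 21 and 22 °C for replicates 1, 2 and 3 in both genotypes according to their labels, and at 20 °C according to the design text, so age and a temperature shift cannot be told apart. Since separate cultures are not stated for libraries of the same group, p-values cover only the spread among these libraries, which may be technical.

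The vacuolar ATPase is a rotary pump that spends ATP to move protons into lysosomes and other compartments. Its V1 sector (subunits A to H) splits ATP in the cytosol, and its V0 sector (subunits a, c, c'', d and e) carries protons through the membrane. The acid lumen it makes activates the cathepsins: aspartyl proteases (asp genes, related to cathepsin D and pepsin) and cysteine proteases (cpr genes, related to cathepsin B; cpl-1, a cathepsin L; cpz-1, a cathepsin Z). In the worm the intestine is the tissue richest in lysosomes and lysosome-related organelles, and it also secretes proteases into the gut lumen.

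By the smallest steps between low values, the depth was about 18 M to 20.2 M fragments per library (M for 10 to the power of 6), with 11100 to 12113 genes at 1 FPKM or more. As the check of the labels, the glp-1 transcript had 66.7 ± 2.16 FPKM (SD, n = 3) in D1 wild type against 3.32 ± 0.0981 in D1 mutants, and 97.9 ± 1.23 against 6.09 ± 0.626 at D6. The summed level of 16 germline markers ran from 5751 to 6894 FPKM over wild-type libraries, and from 37.6 to 117 over mutant ones. The summed level of 11 intestine markers was 12340 to 14303 in wild type at D1, 4877 to 5745 in wild type at D6, 25909 to 27529 in glp-1 at D1 and 24739 to 27143 in glp-1 at D6. Each FPKM value is a share of the RNA of a whole worm, so fewer cells of a type and less RNA per cell cannot be told apart, and the part that these tissue shares play in the results below was not tested. Directions are given for FPKM as deposited. Counts of the gene classes are given also after each library was scaled so that a list of 12 muscle and 14 neuron markers had the same mean log2 level in all libraries, and in places after scaling to the intestine markers. The muscle and neuron markers did not change alike with age. Their median log2 changes were -1.81 (muscle) and -0.16 (13 neuron markers tested) in wild type, and -1.08 and 0.04 in glp-1. Scaled changes with age are thus relative to a reference that was itself not steady. Between genotypes the 2 medians were 1.39 and 1.01 at D1, and 2.16 and 1.54 at D6. The differences between genotypes of vha-5, vha-6, vha-7, vha-18, cup-5, asp-4, asp-13, asp-14, asp-17 and cpr-3 kept their sign at both ages under both marker scalings, though that of vha-5 at D1 no longer passed the test under intestine scaling.

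Most of the 43 genes made up a larger share of the RNA in glp-1 than in wild type. At D1, 36 were called higher, 3 lower and 4 neither by limma on log2(FPKM + 1) at a Benjamini-Hochberg adjusted p under 0.05. Over all 13614 genes tested 41.3% were called higher and 48.1% lower, 89.4% in all, so that being called was no mark of these genes, while the direction of their calls (83.7% higher) differed from that of all genes. At D6, 39 were higher and 3 lower, against 44.4% and 45.4% of all genes (89.8% in all). The same 36 genes were higher at both ages. The 3 that were lower at both ages were vha-18, vha-7 and cup-5, and the 3 that were called at D6 alone, all higher, were cpr-1, cpr-2 and cpr-4. Only cpr-5 passed at neither age. The median log2 difference of the 43 genes was 0.86 at D1 and 1.27 at D6, where that of all genes was -0.15 and -0.03.

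These directions depended on what the RNA was measured against. After scaling to the muscle and neuron markers the median of all genes moved to -0.95 at D1 and -1.15 at D6. A lower call under that scaling is thus no mark of a gene class by itself. Shares of all genes called under it are not given here. The set then had 10 genes higher and 18 lower at D1, and 15 higher and 22 lower at D6. Scaled instead to the intestine markers, it had 7 higher and 25 lower at D1, and 9 higher and 25 lower at D6. Relative to the median of all genes, the set stood at 1.01 and 1.30 (log2) on FPKM as deposited, and at 0.84 and 0.88 after muscle and neuron scaling. The libraries of the 2 genotypes did not overlap for 38 of the 43 genes at D1, 88.4% beside 89.7% of all genes, and for 42 at D6, beside 89.6%.

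**Figure D1:**
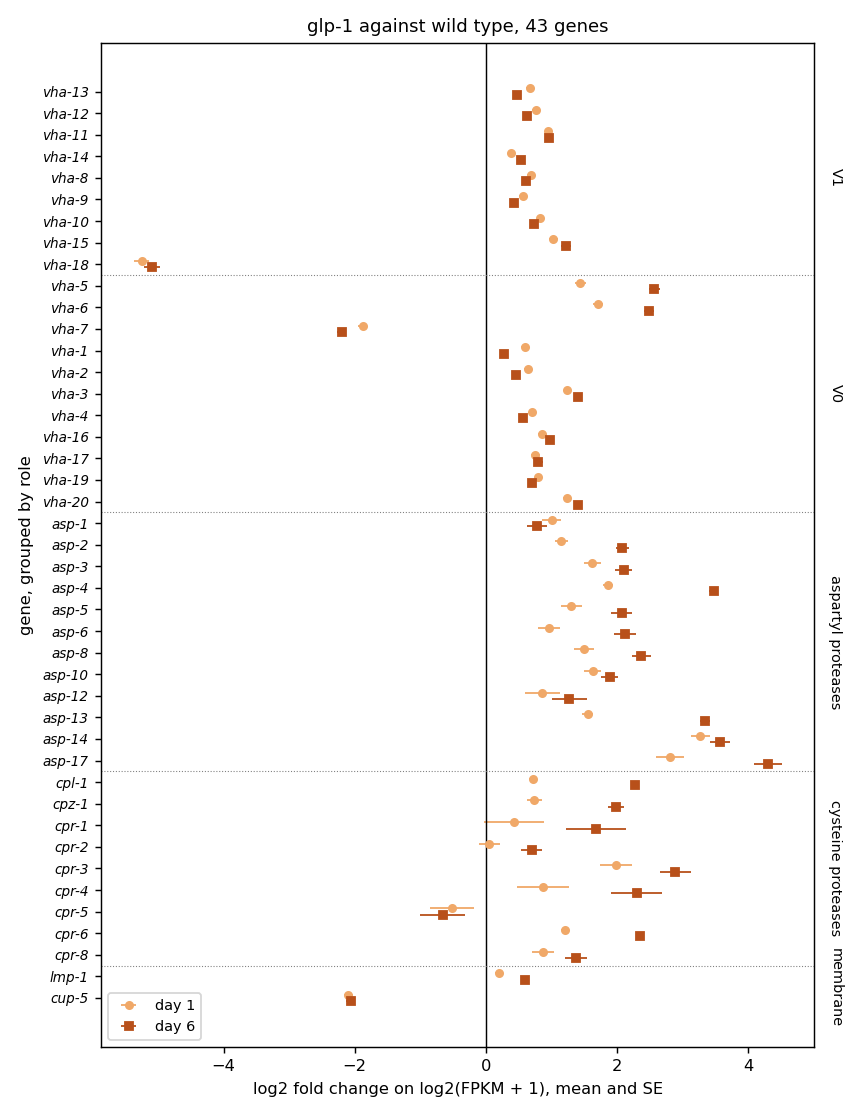
Log2 difference of glp-1 against wild type (x axis, on log2(FPKM + 1) as deposited, mean and SE from limma) for the 43 genes grouped by role (y axis), with circles for day 1 and squares for day 6. The vha genes lie on the right except vha-18 and vha-7, which lie on the left with cup-5, and the asp genes other than asp-1 lie further right at day 6 than at day 1, as do all cysteine proteases but cpr-5.

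In the V1 sector 8 of 9 genes were higher in glp-1 and 1, vha-18, was lower at each age (medians 0.68 and 0.61). Of all genes, 41.3% were higher and 48.1% lower at D1, and 44.4% and 45.4% at D6. After muscle and neuron scaling, which also lowered the median of all genes, 0 were higher and 7 lower at D1, and 0 higher and 9 lower at D6. For vha-13, the catalytic subunit A, the libraries held 288, 298 and 272 FPKM in wild type D1, 471, 457 and 439 in glp-1 D1, 204, 199 and 217 in wild type D6 and 292, 282 and 287 in glp-1 D6. The groups followed the order glp-1 D1, then wild type D1 beside glp-1 D6 (whose values interleave), then wild type D6. The difference between genotypes was 0.67 (SE 0.06, adjusted p = 6.99e-08) at D1 and 0.48 (SE 0.06, adjusted p = 2.14e-06) at D6, and turned to -0.39 and -1.14 under that scaling. For vha-12, the nucleotide-binding subunit B, the levels were 201, 202 and 185 FPKM in wild type D1, 334, 338 and 331 in glp-1 D1, 117, 124 and 128 in wild type D6 and 200, 186 and 185 in glp-1 D6. The order of the groups was that of vha-13, again with wild type D1 and glp-1 D6 overlapping. The other stalk and stator genes, vha-11 (C), vha-14 (D), vha-8 (E), vha-9 (F) and vha-10 (G), had wild-type D1 means of 126, 275, 330, 245 and 369 FPKM and glp-1 D1 means of 244, 361, 528, 366 and 658 FPKM. The genotypes did not overlap at D1 in any of the 5, nor did they for 89.7% of all genes.

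In the V0 sector 10 of 11 genes were higher in glp-1 and 1, vha-7, was lower at each age (median 0.80 at both). Higher in glp-1 were 41.3% of all genes at D1 and 44.4% at D6. After muscle and neuron scaling, which also lowered the median of all genes, 2 were higher and 6 lower at D1, and 2 higher and 8 lower at D6. Per gene length, the ring gene vha-2 was the most abundant pump transcript. For this subunit c gene the libraries held 812, 768 and 763 FPKM in wild type D1, 1249, 1185 and 1216 in glp-1 D1, 608, 583 and 626 in wild type D6 and 813, 798 and 895 in glp-1 D6. For vha-1, its neighbour on chromosome III and also a subunit c gene, the values were 330, 326 and 323, then 514, 480 and 494, then 315, 264 and 277, then 335, 347 and 349 in the same order of groups. Both were higher in glp-1 at each age with no overlap, and for vha-1 the D6 gap was the narrower one, from 315 to 335 FPKM. For vha-3, the subunit c gene next to vha-11 on chromosome IV, they were 243, 236 and 226, 574, 546 and 554, 106, 112 and 110, and 304, 286 and 285 FPKM. Its difference between genotypes was 1.24 (SE 0.05, adjusted p = 5.67e-11) at D1 and 1.41 (SE 0.05, adjusted p = 1.26e-11) at D6, and the latter turned to -0.21 under that scaling. The proteins of vha-2 and vha-3 are known to be the same in sequence and their genes are close copies, so reads may have been split between them, and the value of each is uncertain. For vha-4, the subunit c'' gene, wild type D1 held 235, 233 and 250 FPKM, glp-1 D1 407, 381 and 387, wild type D6 194, 186 and 184, and glp-1 D6 264, 275 and 293. Here glp-1 at D6 lay above wild type at D1 in every library, unlike vha-13 and vha-12.

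The remaining V0 genes did likewise at each age. The means in wild type D1, glp-1 D1, wild type D6 and glp-1 D6 were 159, 287, 129 and 254 FPKM for vha-16 (subunit d), and 182, 305, 150 and 262 FPKM for vha-17 (subunit e). For the accessory genes they were 154, 269, 114 and 187 FPKM for vha-19 and 115, 272, 73.7 and 198 FPKM for vha-20. Counting all vha genes but vha-5, vha-6, vha-7 and vha-18, 16 of 16 were higher in glp-1 by 0.39 to 1.24 (log2) at D1 and by 0.27 to 1.41 at D6, with medians of 0.76 and 0.67. The shares of all genes higher were 41.3% and 44.4%. After muscle and neuron scaling, which also lowered the median of all genes, 0 were higher and 11 were lower at D1, and 0 higher and 15 lower at D6, with medians of -0.30 and -0.95.

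**Figure D2:**
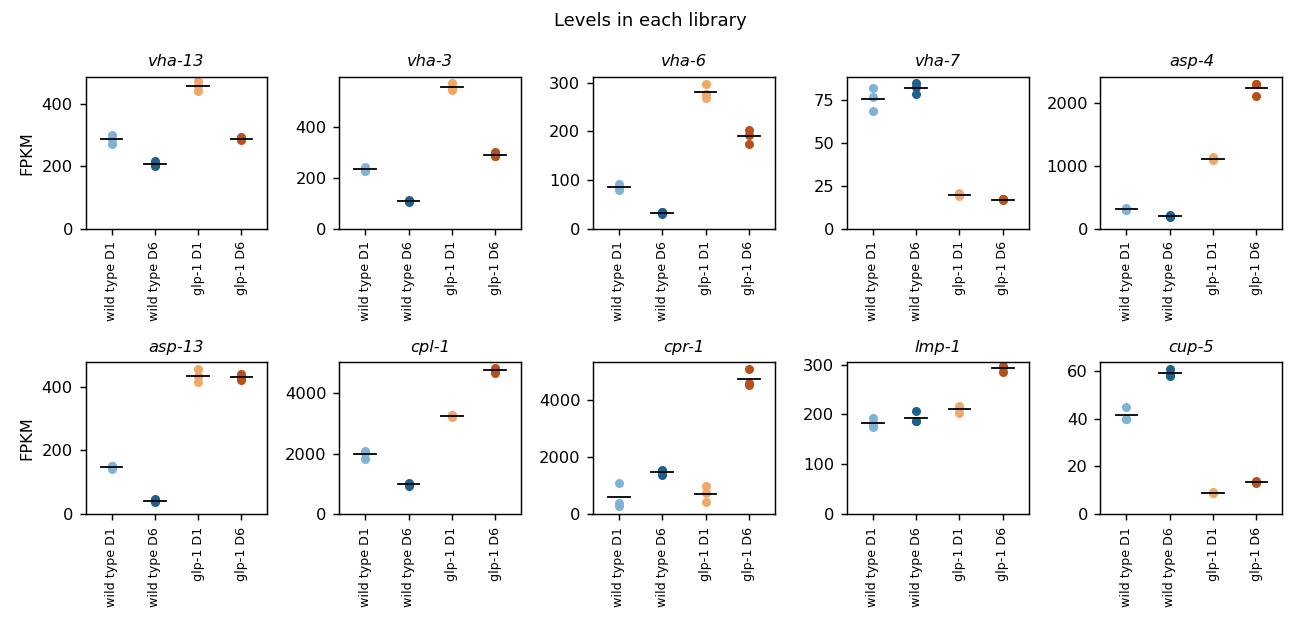
FPKM (y axis, linear, from 0, each panel with its own range) of 10 genes in each of the 12 libraries, by group (x axis), with 1 point per library and a line at the mean of 3. The panels for vha-13 and vha-3 fall from D1 to D6 in both genotypes, those for vha-7 and cup-5 are low in glp-1, and those for asp-4, cpl-1, cpr-1 and lmp-1 are highest in glp-1 at D6.

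Among the 4 genes for subunit a, the V0 subunit that steers the pump to a given membrane, the make-up differed between genotypes in opposite directions. In the worm vha-6 serves the apical membrane of the intestine, vha-5 the epidermis and the excretory canal, vha-7 the epidermis and uterus, and unc-32, which the name rule leaves out, the nervous system. For vha-6 the libraries held 92.8, 79.5 and 82.9 FPKM in wild type D1, 298, 268 and 276 in glp-1 D1, 33.8, 30.6 and 34.2 in wild type D6 and 175, 192 and 202 in glp-1 D6. For vha-5 they held 30, 36.1 and 32.7, then 94.5, 91.5 and 87.3, then 10.2, 10 and 11.1, then 69.5, 67.1 and 64.2 FPKM. Both were higher in every glp-1 library than in any wild-type library of either age. The differences were 1.71 (SE 0.08, adjusted p = 1.01e-10) at D1 and 2.49 (SE 0.08, adjusted p = 2.04e-12) at D6 for vha-6, and 1.44 (SE 0.08, adjusted p = 5.18e-10) and 2.57 (SE 0.08, adjusted p = 1.37e-12) for vha-5, and neither changed sign after muscle and neuron scaling. For vha-7 the libraries held 76.8, 68.3 and 81.6 FPKM in wild type D1, 18.8, 19.9 and 20.6 in glp-1 D1, 82.2, 84.8 and 78.2 in wild type D6 and 17.2, 16.5 and 17.2 in glp-1 D6. It was lower in glp-1 by 3.68-fold at D1 (log2 -1.88, SE 0.07, adjusted p = 2.54e-11) and 4.6-fold at D6 (log2 -2.20, SE 0.07, adjusted p = 4.15e-12), with no overlap.

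Shares within a subunit do not depend on how libraries are scaled. Of the summed FPKM of the 4 subunit a genes, vha-6 made up 33.5% ± 2.12 (SD, n = 3) in wild type D1, 63% ± 1.37 in glp-1 D1, 16.8% ± 1.39 in wild type D6 and 54.3% ± 1.89 in glp-1 D6. The share of vha-7 was 29.7% ± 1.52, 4.44% ± 0.365, 41.6% ± 0.573 and 4.88% ± 0.249 in the same order, and that of vha-5 was 13% ± 1.70, 20.4% ± 0.448, 5.33% ± 0.445 and 19.3% ± 1.49. The gene unc-32 made up 23.7% ± 0.823, 12.2% ± 0.815, 36.3% ± 1.22 and 21.5% ± 0.389. In wild type at D6 vha-7 and unc-32 thus made up most of subunit a, and in glp-1 vha-6 did at both ages. None of these shares overlapped between genotypes (exact permutation test, two-sided p = 0.1 for each, the smallest that 3 against 3 libraries allow). Between ages the shares of vha-5 (p = 0.3) and vha-7 (p = 0.2) in glp-1 overlapped (exact permutation test, two-sided), and the others did not.

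The 2 genes for subunit H stood apart even more. For vha-18 the libraries held 48.9, 48.9 and 53.7 FPKM in wild type D1, 73.3, 66 and 63.9 in wild type D6, 0.396, 0.206 and 0.478 in glp-1 D1 and 1.2, 0.73 and 1.13 in glp-1 D6. It had the lowest difference of the set between genotypes at both ages (log2 -5.25 and -5.09, SE 0.12 each, adjusted p = 3.13e-13 and 2.81e-13). Its partner vha-15 held means of 103 FPKM in wild type D1, 212 in glp-1 D1, 68.5 in wild type D6 and 161 in glp-1 D6. As a share of subunit H, vha-18 was 33.0% ± 3.26 in wild type D1 and 49.7% ± 2.67 in wild type D6, but 0.169% ± 0.0655 and 0.632% ± 0.168 in glp-1. Exons of vha-18 overlap F52E1.2 on the opposite strand in the annotation, and the strand setting of the counting is unknown from the sources at hand. For subunit B the same comparison had the gene spe-5, also outside the name rule, at 4.58% ± 0.478 beside vha-12 in wild type D1, 8.22% ± 0.954 in wild type D6, 0.0509% ± 0.0445 in glp-1 D1 and 0.133% ± 0.045 in glp-1 D6. Within subunit c the shift was smaller. The gene vha-3 made up 17.5% ± 0.258, 24.6% ± 0.123, 10.9% ± 0.721 and 19.9% ± 1.15 in wild type D1, glp-1 D1, wild type D6 and glp-1 D6.

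**Figure D3:**
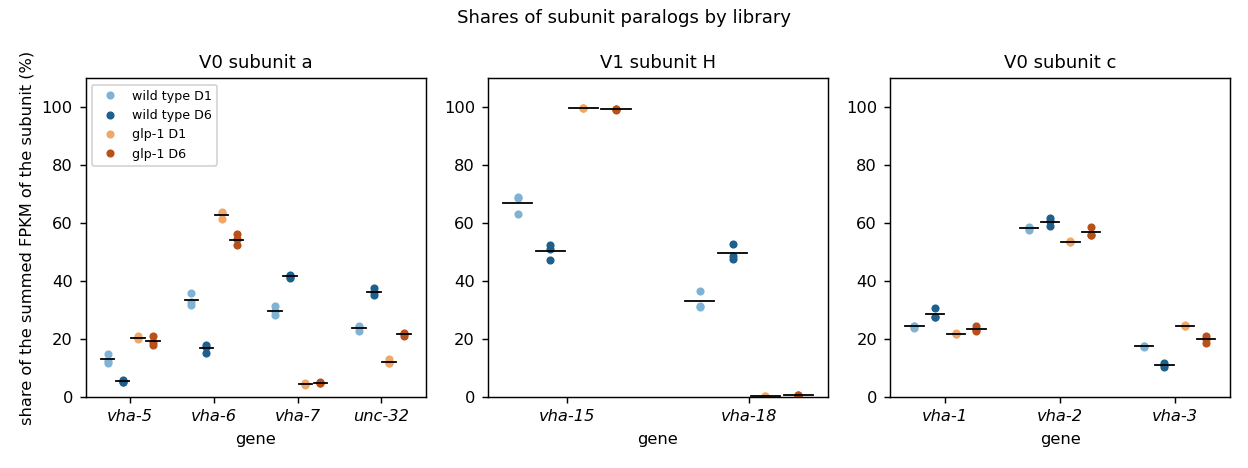
Share of each paralog in the summed FPKM of its subunit (y axis, percent) for subunit a (left), subunit H (middle) and subunit c (right), with 1 point per library, coloured by group, and a line at the mean of 3. In subunit a, vha-6 has the largest mean share in both glp-1 groups and in wild type D1 (33.5%, beside 29.7% for vha-7). In wild type D6 vha-7 has the largest, at 41.6%. In subunit H vha-18 is at 33.0% and 49.7% in wild type and under 1% in glp-1.

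Of the aspartyl proteases 12 of 12 were higher in glp-1 at D1 (median 1.53) and at D6 (median 2.11), beside 41.3% and 44.4% of all genes. After muscle and neuron scaling 7 were higher and 0 lower at D1, and 9 higher and 1 lower at D6. By mean level asp-1, an intestinal lysosomal protease, and asp-6 were the top 2 of the class in wild type and in D1 mutants, while in glp-1 D6 asp-6, asp-3 and asp-4 (4810, 2405 and 2236 FPKM) lay above asp-1 (1686 FPKM). For asp-1 the libraries held 2044, 1403 and 1443 FPKM in wild type D1, 3457, 2669 and 3556 in glp-1 D1, 914, 931 and 1100 in wild type D6 and 1600, 1621 and 1838 in glp-1 D6. The genotypes did not overlap at either age, and D6 lay below D1 in both. The difference was 1.00 (SE 0.15, adjusted p = 2.67e-05) at D1 and 0.78 (SE 0.15, adjusted p = 0.000213) at D6, and turned to -0.06 and -0.84 under that scaling.

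For asp-6 the libraries held 1806, 981 and 1315 FPKM in wild type D1, 2893, 2238 and 2678 in glp-1 D1, 1144, 1013 and 1161 in wild type D6 and 4620, 4818 and 4990 in glp-1 D6. The genotypes did not overlap, and replicate 1 was the high library of wild type D1. The difference was 0.96 (SE 0.17, adjusted p = 0.00015) at D1, which turned to -0.10 under muscle and neuron scaling. At D6 it was 2.12 (SE 0.17, adjusted p = 6.55e-08), which did not turn under that scaling. Scaled to the intestine markers, the D6 difference was nearly gone. The intestine factors were 0.418, 0.39 and 0.42 in wild type D6, and 1.69, 1.79 and 1.82 in glp-1 D6. For asp-3, a cathepsin D-like protease that takes part in necrotic cell death in worm neurons, the libraries held 679, 438 and 502, then 1740, 1505 and 1651, then 569, 502 and 615, then 2410, 2375 and 2431 FPKM in wild type D1, glp-1 D1, wild type D6 and glp-1 D6. The wild-type ages overlapped, and every glp-1 library lay above them. Its difference was 1.62 (SE 0.13, adjusted p = 5.41e-08) at D1 and 2.10 (SE 0.13, adjusted p = 2.69e-09) at D6, and the latter came to -0.01 when scaled to the intestine markers.

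The cathepsin D-like asp-4, which acts with asp-3 in necrotic cell death, went opposite ways with age in the 2 genotypes. The libraries held 292, 305 and 321 FPKM in wild type D1, 217, 180 and 208 in wild type D6, 1097, 1134 and 1118 in glp-1 D1 and 2106, 2305 and 2297 in glp-1 D6. All 4 groups were separate, wild type lower at D6 and glp-1 higher. The difference between genotypes was 3.64-fold at D1 (log2 1.86, SE 0.07, adjusted p = 2.04e-11) and 11.1-fold at D6 (log2 3.47, SE 0.07, adjusted p = 1.34e-13). Its share of the summed aspartyl FPKM was 6.49% ± 1.46 and 5.98% ± 0.395 in wild type D1 and D6, and 9.94% ± 1.11 and 16% ± 0.465 in glp-1, while that of asp-1 was 33.5% ± 1.6, 29.1% ± 1.78, 28.4% ± 1.95 and 12% ± 0.528.

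For asp-13 the libraries held 152, 151 and 141 FPKM in wild type D1, 46.5, 36.4 and 42.1 in wild type D6, 455, 435 and 415 in glp-1 D1 and 421, 427 and 439 in glp-1 D6. The wild-type level fell with age by 1.81 (log2, SE 0.08, adjusted p = 2.08e-09), and the glp-1 libraries of both ages overlapped (-0.02, SE 0.08, adjusted p = 0.856). Between genotypes the difference was 1.55 (SE 0.08, adjusted p = 3.37e-10) at D1 and 3.34 (SE 0.08, adjusted p = 2.57e-13) at D6. The widest gaps at D1 belonged to asp-14 and asp-17. For asp-14 wild type D1 held 22.3, 20.8 and 26.5 FPKM, glp-1 D1 212, 239 and 245, wild type D6 30.1, 22.8 and 38.8, and glp-1 D6 384, 366 and 351. The genotypes differed by 3.27 (SE 0.15, adjusted p = 1.84e-10) at D1 and 3.57 (SE 0.15, adjusted p = 5.76e-11) at D6.

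For asp-17, close to the level cut in wild type D1, the values were 1.91, 0.937 and 2.18 FPKM in wild type D1, 11.2, 12.9 and 10.8 in wild type D6, 16.1, 21.1 and 15.4 in glp-1 D1 and 187, 307 and 267 in glp-1 D6. The groups were separate and glp-1 D6 stood above all others. The differences of 2.81 (SE 0.21, adjusted p = 2.49e-08) at D1 and 4.30 (SE 0.21, adjusted p = 2.28e-10) at D6 understate the change, because the pseudocount of 1 weighs on values this low. For asp-12, which lies between asp-6 and asp-5 on chromosome V, the libraries held 15.2, 4.95 and 7.4, then 16.2, 14.2 and 17.4, then 14.1, 10.7 and 14.3, then 30, 35.7 and 32.7 FPKM in wild type D1, glp-1 D1, wild type D6 and glp-1 D6. It was called at D1, although wild type replicate 1 lay inside the glp-1 range. The 4 members not yet given, asp-2, asp-5, asp-8 and asp-10, had means of 340, 441, 2.04 and 65.1 FPKM in wild type D1 and 749, 1070, 7.54 and 201 FPKM in glp-1 D1. At D1 their genotypes did not overlap, which held for 89.7% of all genes.

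The cysteine proteases split in 2. At D1, 5 of 9 were higher in glp-1 and 0 lower, and at D6, 8 of 9 were higher and 0 lower, with medians of 0.74 and 1.98. Of all genes 41.3% were higher at D1 and 44.4% at D6. After muscle and neuron scaling 1 was higher and 3 lower at D1, and 4 higher and 2 lower at D6. The most abundant at D1 was cpl-1, a cathepsin L needed for yolk processing in embryos, while at D6 the means of cpr-1 and cpl-1 were 1470 and 988 FPKM in wild type and 4714 and 4756 FPKM in glp-1. Its libraries held 2026, 2103 and 1811 FPKM in wild type D1, 944, 1010 and 1011 in wild type D6, 3279, 3217 and 3290 in glp-1 D1 and 4764, 4825 and 4679 in glp-1 D6. All 4 groups were separate. The difference was 1.65-fold at D1 (log2 0.72, SE 0.06, adjusted p = 7.38e-08), which turned to -0.34 (log2) under muscle and neuron scaling, and 4.81-fold at D6 (log2 2.27, SE 0.06, adjusted p = 6.16e-13), which did not turn.

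For cpr-6, a cathepsin B, the libraries held 959, 902 and 894 FPKM in wild type D1, 530, 454 and 511 in wild type D6, 2100, 2142 and 2145 in glp-1 D1 and 2489, 2570 and 2543 in glp-1 D6. As with cpl-1, wild type was lower and glp-1 higher at D6 than at D1. The difference was 1.21 (SE 0.06, adjusted p = 3.34e-10) at D1, which turned to -0.17 when scaled to the intestine markers, and 2.35 (SE 0.06, adjusted p = 5.23e-13) at D6. For cpz-1, a cathepsin Z that acts in molting, they held 459, 651 and 472, then 207, 232 and 187, then 865, 845 and 904, then 922, 777 and 769 FPKM in the same order. In glp-1 the ages overlapped, and in wild type they did not. Its difference was 0.74 (SE 0.12, adjusted p = 7.4e-05) at D1, which turned to -0.32 under muscle and neuron scaling, and 1.98 (SE 0.12, adjusted p = 2.77e-09) at D6, which turned to -0.13 when scaled to the intestine markers.

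The gut protease genes cpr-1 and cpr-4 varied between libraries at D1. For cpr-1 wild type D1 held 1092, 388 and 290 FPKM, glp-1 D1 986, 405 and 749, wild type D6 1530, 1363 and 1516, and glp-1 D6 4577, 4502 and 5064. The genotypes overlapped at D1 (0.43, SE 0.46, adjusted p = 0.389) and were apart at D6 (1.68, SE 0.46, adjusted p = 0.00546, turned to -0.43 when scaled to the intestine markers). For cpr-4 wild type D1 held 581, 215 and 175 FPKM, glp-1 D1 701, 379 and 504, wild type D6 489, 445 and 440, and glp-1 D6 2059, 2340 and 2396. Its difference was 0.87 (SE 0.39, adjusted p = 0.0548) at D1 and 2.30 (SE 0.39, adjusted p = 0.000214) at D6. Replicate 1 of wild type at D1 was the highest of its group for most proteases: asp-1, asp-2, asp-3, asp-5, asp-6, asp-8, asp-12, asp-13, cpr-1, cpr-4, cpr-5, cpr-6 and cpr-8. It was not for asp-4, asp-10, asp-14, asp-17, cpl-1, cpr-3 and cpz-1. The proteases took 1.33% of its FPKM, beside 0.985% and 0.983% in replicates 2 and 3, while the vha genes took 0.515%, 0.511% and 0.506%. Its intestine marker sum was 14303 FPKM beside 13411 and 12340. Without this library, the D1 difference of cpr-1 was 0.99 (adjusted p = 0.0098) and that of cpr-4 was 1.40 (adjusted p = 3.47e-05), both past the threshold by limma. The gene cpr-4 also passed without replicate 2 of glp-1 D1 (1.09, adjusted p = 0.0379).

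For cpr-5 wild type D1 held 244, 152 and 100 FPKM, glp-1 D1 139, 76.9 and 116, wild type D6 118, 135 and 158, and glp-1 D6 75.9, 67.7 and 123. The groups overlapped throughout, with differences between genotypes of -0.52 (SE 0.34, adjusted p = 0.17) at D1 and -0.66 (SE 0.34, adjusted p = 0.0911) at D6. It passed as lower at D1 without wild type D1 replicate 3 (-0.83, adjusted p = 0.0314), and at D6 without glp-1 D6 replicate 3 (-0.92, adjusted p = 0.03) or wild type D1 replicate 1 (-0.66, adjusted p = 0.0451). Its neighbour cpr-8, which lies 565 bp away on the other strand of chromosome V, was low, at 4.09 ± 1.33 FPKM in wild type D1, 8.15 ± 1.09 in glp-1 D1, 6.06 ± 0.67 in wild type D6 and 17.2 ± 0.736 in glp-1 D6. For cpr-3 the libraries held 7.77, 6.55 and 15.3 FPKM in wild type D1, 35.3, 47 and 36.7 in glp-1 D1, 17.4, 17.3 and 19.7 in wild type D6 and 116, 160 and 148 in glp-1 D6. It was higher in glp-1 by 1.98 (SE 0.24, adjusted p = 4.89e-06) at D1 and 2.89 (SE 0.24, adjusted p = 1.02e-07) at D6. The gene cpr-2 was listed at 0 in all 3 wild-type D1 libraries and in 2 of the glp-1 D1 libraries, with 0.108 FPKM in the other. At D6 it held 2.7, 4.02 and 3.26 FPKM in wild type and 6.33, 4.57 and 7.26 in glp-1.

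The 2 lysosomal membrane genes went apart. For lmp-1, the worm's LAMP-like glycoprotein of the lysosomal membrane, the libraries held 182, 193 and 175 FPKM in wild type D1, 187, 206 and 187 in wild type D6, 213, 203 and 216 in glp-1 D1 and 286, 296 and 298 in glp-1 D6. The genotypes were apart at each age, with the narrower gap at D1, and the wild-type ages overlapped. The difference was 0.20 (SE 0.06, adjusted p = 0.00592) at D1 and 0.60 (SE 0.06, adjusted p = 3.44e-07) at D6, and turned to -0.85 and -1.02 under muscle and neuron scaling. For cup-5, a mucolipin channel needed to form lysosomes in coelomocytes and other cells, they held 39.8, 40.1 and 44.8, then 58.5, 61.1 and 58.2, then 9.01, 9.07 and 8.66, then 13, 13.9 and 13.3 FPKM. It was lower in glp-1 by 4.29-fold at D1 (log2 -2.10, SE 0.07, adjusted p = 5.76e-12) and 4.18-fold at D6 (log2 -2.06, SE 0.07, adjusted p = 5.17e-12). The summed level of 3 coelomocyte markers went the other way, at 7.65 to 9.91 FPKM in wild type D1, 21.6 to 27.8 in glp-1 D1, 3.77 to 5.51 in wild type D6 and 32.5 to 40.5 in glp-1 D6.

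Other genes of the pathway were read from lists chosen with earlier results of these data known. Of 27 further lysosomal hydrolases tested (nucleases, lipases, glycosidases, ceramidases and carboxypeptidases), 25 were higher in glp-1 and 0 lower at each age, with medians of 1.84 at D1 and 2.17 at D6. That is 92.6% higher, beside 41.3% of all genes at D1 and 44.4% at D6. After muscle and neuron scaling 19 were higher and 2 lower at D1, and 19 higher and 3 lower at D6. Scaled to the intestine markers, 18 were higher and 5 lower at D1, and 11 higher and 5 lower at D6. The acid nuclease gene nuc-1, which degrades DNA of dead cells and of gut bacteria, was at 77.5 ± 0.87 FPKM in wild type D1, 281 ± 14.7 in glp-1 D1, 172 ± 6.41 in wild type D6 and 758, 869 and 968 FPKM in the glp-1 D6 libraries. Its difference between genotypes was 0.79 at D1 and 0.70 at D6 (SE 0.13 each) after muscle and neuron scaling. The 30 genes of lysosomal membrane proteins and trafficking were divided, with 10 higher and 14 lower at D1 and 15 higher and 12 lower at D6. These shares (33.3% and 46.7%, then 50% and 40%) were near those of all genes (41.3% and 48.1%, then 44.4% and 45.4%), so the division was no mark of this list. After muscle and neuron scaling, which also lowered the median of all genes, 3 were higher and 21 lower, then 5 higher and 19 lower. Of 12 regulators, 5 were higher and 7 lower at both ages (41.7% and 58.3%, beside the shares of all genes just given), against 1 higher and 7 lower at D1 and 3 higher and 8 lower at D6 after that scaling. Among them hlh-30, the worm's TFEB and an activator of lysosomal genes, ran from 49.9 to 68.6 FPKM in wild type D1, from 114 to 124 in glp-1 D1, from 55.3 to 66.2 in wild type D6 and from 129 to 148 in glp-1 D6. Scaled to the muscle and neuron markers, its difference between genotypes was -0.04 (SE 0.10) at D1 and -0.47 (SE 0.10, adjusted p = 0.000273) at D6. Its antagonist mxl-3 was at 24.6 ± 4.54, 169 ± 11.1, 11.5 ± 2.37 and 171 ± 8.34 FPKM in the same order, and stayed higher in glp-1 after that scaling (1.70 at D1 and 2.24 at D6, SE 0.15 each). The cystatin gene cpi-1, whose product inhibits cysteine proteases, was at 221 ± 45.4, 1040 ± 63.3, 931 ± 60.8 and 2801 ± 249 FPKM, and its difference at D6 was -0.04 (SE 0.17) after muscle and neuron scaling. Of the 4 V-ATPase genes outside the name rule, rbc-1 was higher at both ages as deposited and lower at both after muscle and neuron scaling (-0.58 and -0.33), spe-5 and rbc-2 were lower at both, and unc-32 was lower at D1 (-0.15, SE 0.07, adjusted p = 0.0489) and not called at D6 (0.07, SE 0.07, adjusted p = 0.324).

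With age, on FPKM as deposited, most vha genes were lower at D6 in both genotypes, while more proteases were lower than higher in wild type and more were higher than lower in glp-1. In wild type, 7 of the 43 genes were higher at D6 than at D1 and 27 were lower, where 35.1% and 22.7% of all genes were (57.7% in all). In glp-1, 17 were higher and 22 lower, where 39.1% and 15.6% of all genes were (54.7% in all). The libraries of the 2 ages did not overlap for 35 of the 43 genes in wild type (81.4%, beside 64.9% of all genes) and for 40 in glp-1 (93%, beside 59.8%). After muscle and neuron scaling, which took the all-gene median to 0.96 (from 0.13) in wild type and to 0.42 (from 0.20) in glp-1, the split was 29 higher and 5 lower in wild type and 19 higher and 8 lower in glp-1, and after intestine scaling it was 27 higher and 6 lower in wild type. Relative to the median of all genes, the vha genes had a median of -0.63 in wild type and -0.71 in glp-1 as deposited, and of -0.53 and -0.57 after scaling.

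Of the 20 vha genes, 17 were lower at D6 in both genotypes as deposited. Lower were 22.7% of all genes in wild type and 15.6% in glp-1. After muscle and neuron scaling, which raised the median of all genes, 16 were higher and 2 lower in wild type, and 1 higher and 6 lower in glp-1. Scaled to the intestine markers, 14 were higher and 3 lower in wild type, and 1 higher and 15 lower in glp-1. The exceptions were vha-18, which was higher in both, and vha-7 and vha-9, which were lower in glp-1 and not called in wild type. For vha-13 the change was -0.47 (SE 0.06, adjusted p = 1.61e-05) in wild type, which turned to 0.46 under muscle and neuron scaling, and -0.66 (SE 0.06, adjusted p = 5.54e-07) in glp-1, which did not turn. The changes of vha-6 were -1.34 (SE 0.08, adjusted p = 2.35e-08) in wild type and -0.57 (SE 0.08, adjusted p = 4.05e-05) in glp-1, and those of vha-5 were -1.56 (SE 0.08, adjusted p = 5.75e-09) and -0.44 (SE 0.08, adjusted p = 0.00029).

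Of the 21 proteases, 5 were higher and 10 lower with age in wild type (median -0.26), and 14 higher and 3 lower in glp-1 (median 0.56). Of all genes, 35.1% were higher and 22.7% lower in wild type, and 39.1% and 15.6% in glp-1. After muscle and neuron scaling, which raised the median of all genes, 11 were higher and 3 lower in wild type, and 16 higher and 2 lower in glp-1. As deposited, asp-4, asp-8, cpl-1 and cpr-6 were lower in wild type and higher in glp-1. For asp-4 the changes were -0.60 (SE 0.07, adjusted p = 1.46e-05) and 1.00 (SE 0.07, adjusted p = 1.16e-07), and for cpl-1 they were -1.0 (SE 0.06, adjusted p = 3.71e-08) and 0.54 (SE 0.06, adjusted p = 7.03e-06). Under muscle and neuron scaling the wild-type change of asp-4 turned to 0.32. That of cpl-1 kept its sign but was nearly gone, because the library factors fell about as much as its FPKM. The factors were 0.903, 0.931 and 0.775 in wild type D1, and 0.419, 0.458 and 0.491 in wild type D6. The wild-type falls of asp-8 and cpr-6 did not hold under that scaling. Lower in both genotypes were asp-1, asp-2 and asp-10, and higher in both were asp-17, cpr-1, cpr-2, cpr-3 and cpr-8. The change of cpr-1 was 1.56 (SE 0.46, adjusted p = 0.0152) in wild type and 2.81 (SE 0.46, adjusted p = 0.000523) in glp-1. Without wild type D1 replicate 2 its wild-type change was 1.38 (adjusted p = 0.0582), no longer past the threshold.

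**Figure D4:**
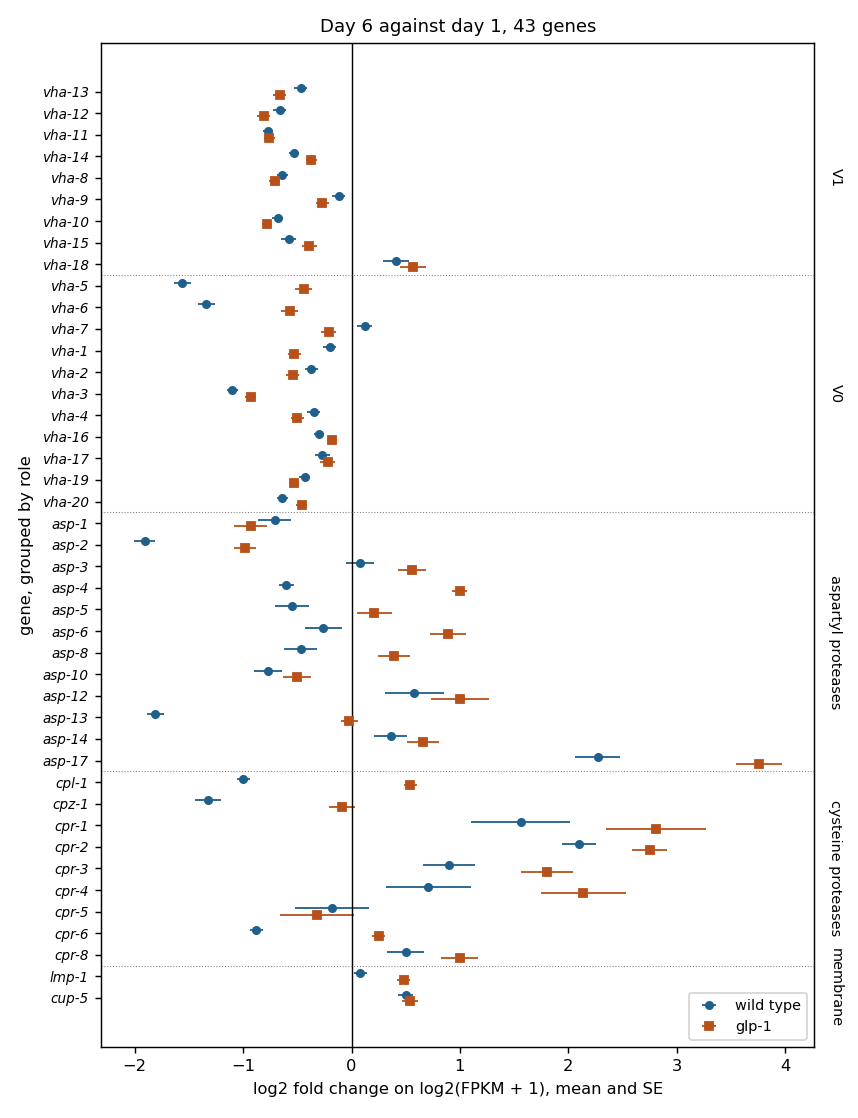
Log2 difference of D6 against D1 (x axis, on log2(FPKM + 1) as deposited, mean and SE from limma) for the 43 genes grouped by role (y axis), with circles for wild type and squares for glp-1. The vha genes other than vha-18 and vha-7 in wild type lie left of 0 in both genotypes, while for asp-4, asp-8, cpl-1 and cpr-6 the circle lies left of 0 and the square right of it.

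The change with age itself differed between genotypes for part of the set. The interaction (the log2 change from D1 to D6 of glp-1 less that of wild type) was called higher for 16 of the 43 genes and lower for 2, where 30.9% and 16.6% of all genes were (47.5% in all). The split was 7 higher and 21 lower after muscle and neuron scaling, 5 and 23 after intestine scaling, and 11 and 11 after scaling by the median of ratios to a mean library. As deposited it was called for 13 of the 21 proteases, all 13 higher, with a median of 0.91 beside 0.15 over all genes. For the vha genes apart from vha-5, vha-6, vha-7 and vha-18 it was called for 1 of 16 (vha-1, -0.33, SE 0.09, adjusted p = 0.00963), with a median of -0.08. After muscle and neuron scaling, where the median of all genes was -0.40, 6 proteases were higher and 2 lower with a median of 0.38, and 16 of these 16 vha genes were lower with a median of -0.64. The widest interactions were those of asp-13 (1.79, SE 0.11, adjusted p = 2.76e-07), asp-4 (1.6, SE 0.10, adjusted p = 3.01e-07) and cpl-1 (1.54, SE 0.08, adjusted p = 1.29e-07).

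A ratio of the summed protease FPKM to the summed vha FPKM of the same library is free of library scaling. It was 2.58, 1.93 and 1.94 in wild type D1, 2.23, 2.16 and 2.37 in wild type D6, 2.66, 2.4 and 2.69 in glp-1 D1 and 5.8, 5.9 and 5.94 in glp-1 D6. The glp-1 D6 libraries lay above the other 9, which ran from 1.93 to 2.69. For the aspartyl class the ratio was 1.12 ± 0.227, 1.06 ± 0.0843, 1.54 ± 0.115 and 2.80 ± 0.0569 in wild type D1, wild type D6, glp-1 D1 and glp-1 D6, and for the cysteine class 1.03 ± 0.169, 1.19 ± 0.0185, 1.04 ± 0.046 and 3.07 ± 0.0142 (SD, n = 3). As shares of all FPKM, the vha genes took 0.511% ± 0.00456, 0.366% ± 0.00243, 0.901% ± 0.032 and 0.633% ± 0.00101, and the proteases 1.10% ± 0.199, 0.824% ± 0.0385, 2.33% ± 0.160 and 3.72% ± 0.0433. The sums are carried by the abundant genes: in glp-1 at D6, asp-6 made up 34.4% ± 0.121 of the aspartyl sum, and cpr-1 made up 48.3% ± 1.44 of the summed cpr genes.

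**Figure D5:**
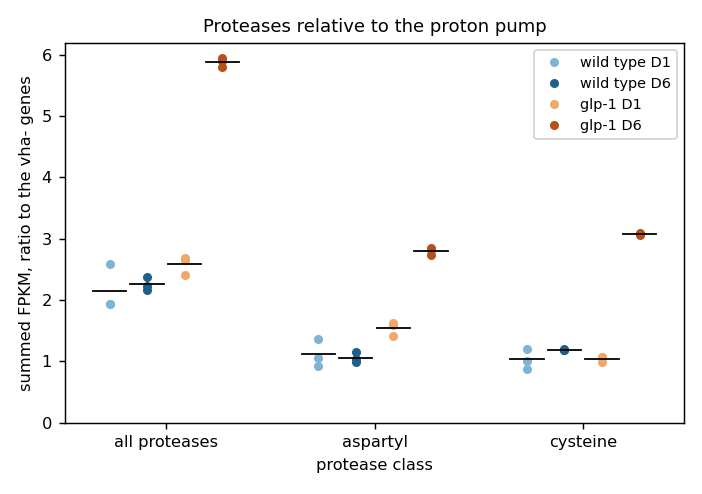
Summed FPKM of the proteases over that of the 20 vha genes (y axis, ratio, from 0) for all 21 proteases, the 12 aspartyl and the 9 cysteine ones (x axis), with 1 point per library, coloured by group, and a line at the mean of 3. The glp-1 D6 libraries stand at 5.8 to 5.94 for all proteases, and the other 9 libraries at 1.93 to 2.69.

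In the genome the set was spread over all 6 chromosomes. Of the 43 genes, 42 matched a gene of the WBcel235 annotation from Ensembl, and asp-10 did not. Chromosome V held 17, X held 8, IV held 7, III held 4, and II and I held 3 each. A pair of pump genes, vha-1 and vha-2, lie in the same orientation on chromosome III with 400 bp between them, and vha-11 and vha-3 do so on chromosome IV with 892 bp between them. On chromosome V, asp-6 and asp-12 lie 272 bp apart on opposite strands, and asp-12 and asp-5 lie 328 bp apart on the same strand. Neighbours did not share a level: asp-12 was at 9.17 ± 5.33 FPKM in wild type D1 between asp-6 at 1367 ± 415 and asp-5 at 441 ± 115. Exons of vha-2 and vha-13 overlap those of R10E11.6 and Y49A3A.3 on the same strand, and those of asp-2, asp-4, cup-5, vha-5, vha-17, vha-18 and vha-19 overlap a gene on the opposite strand, so the fragments of these genes are uncertain to that extent.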

How the data were processed

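The authors deposited 1 table per library with a value per gene in FPKM, per the file headers. Tools named in the submitters' processing notes are HISAT2 2.0.4 and DESeq2 1.6.3, with build WBcel235. The sources used here do not give the program behind the FPKM values, its annotation or its strand setting. The members and gene lists were chosen with earlier results of these data known. Genes that reached 1 FPKM in 3 or more of 12 libraries were tested on log2(FPKM + 1) with limma 3.58.1 (R 4.3.3), a scale that understates changes of low values. The fit took a mean for each group from all 12 libraries (8 residual degrees of freedom) with trend and robust moderation. The 5 contrasts were genotype at each age, age in each genotype, and their interaction, with Benjamini-Hochberg adjustment over 13614 genes and calls at adjusted p under 0.05. Values in all libraries are given for subunit a, A, B and ring genes, cpl-1, cpz-1, lmp-1, cup-5, asp-1, asp-3, asp-4, and the extreme asp, cpr and interaction genes. The extreme genes were picked by their log2 differences, asp-6 and asp-12 as the lowest asp genes at D1. The genes cpr-1, cpr-4 and vha-18 were added after their values were seen. Shares within a subunit were compared by exact permutation tests. Alternatives were pseudocounts of 0.1 and 0.5, other filters (none, 5 FPKM), 3 scalings, a plain variance model, fits on fewer groups, a replicate block and leaving out each library. Depth is only approximate, because FPKM holds no counts, so no counting intervals were computed.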

Additional observations from a re-analysis of the deposited data

Results flagged for a closer look

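The change from D1 to D6 differed between the genotypes, by the interaction term of limma at adjusted p under 0.05, for 18 of the 43 genes. In log2 units, glp-1 minus wild type, the values were 1.79 for asp-13, 1.6 for asp-4, 1.54 for cpl-1, 1.49 for asp-17, 1.23 for cpz-1, 1.16 for asp-6, 1.13 for cpr-6 and 1.13 for vha-5. They were 0.93 for asp-2, 0.91 for cpr-3, 0.87 for asp-8, 0.78 for vha-6, 0.76 for asp-5, 0.65 for cpr-2, 0.48 for asp-3 and 0.40 for lmp-1. The 2 below 0 were vha-7 (-0.32) and vha-1 (-0.33). The value of cpr-2 rests on D1 groups listed at or near 0. The calls of asp-3, cpr-2, cpr-3 and vha-7 were each lost when some single libraries were left out. Those of asp-3 and cpr-2 were each lost for any of 9 libraries. That of cpr-3 was lost for any wild type D6 library, for replicates 1 and 3 of glp-1 D1 and for replicates 2 and 3 of glp-1 D6. That of vha-7 was lost for replicate 2 of wild type D1 or of wild type D6. With each library scaled to the muscle and neuron markers, the values of asp-3, cpr-2 and lmp-1 turned to -0.08, -0.67 and -0.16.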

How the results depend on the processing

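Scaling was the choice that turned directions. With each library scaled to the muscle and neuron markers, the log2 difference of glp-1 against wild type at D1 turned to -0.39 for vha-13, -0.06 for asp-1, -0.10 for asp-6, -0.34 for cpl-1, -0.32 for cpz-1 and -0.85 for lmp-1. At D6 it turned to -1.14 for vha-13, -0.21 for vha-3, -0.84 for asp-1 and -1.02 for lmp-1. The change with age in wild type turned to 0.46 for vha-13 and 0.32 for asp-4, that of asp-13 in glp-1 turned to 0.35, and the interaction turned to -0.08 for asp-3, -0.67 for cpr-2 and -0.16 for lmp-1. Scaled to the intestine markers, the D1 difference turned to -0.71 for vha-13, -0.14 for vha-3, -0.39 for asp-1, -0.42 for asp-6, -0.66 for cpl-1, -0.64 for cpz-1, -0.17 for cpr-6 and -1.18 for lmp-1. At D6 it turned to -1.63 for vha-13, -0.69 for vha-3, -1.33 for asp-1, -0.01 for asp-3, -0.13 for cpz-1, -0.43 for cpr-1 and -1.5 for lmp-1. The wild-type change with age turned to 0.36 for vha-13 and 0.23 for asp-4, and the interaction to -0.24 for asp-3, -1.07 for cpr-2 and -0.33 for lmp-1. The genes called higher and lower at D1 then numbered 10 and 18 (muscle and neuron) or 7 and 25 (intestine), and at D6 15 and 22 or 9 and 25. For age in wild type they numbered 29 and 5 or 27 and 6, for the interaction 7 and 21 or 5 and 23, and 8 were lower with age in glp-1 under muscle and neuron scaling. Scaling by the median of ratios gave 11 lower interactions in place of 2. Other pseudocounts, filters, variance models and fits on fewer groups turned no direction of the values printed. With single libraries left out, the counts of higher and lower genes ran from 36 to 38 and 3 to 4 at D1, stayed at 39 and ran from 3 to 4 at D6, from 6 to 10 and 25 to 28 for age in wild type, from 16 to 17 and 21 to 22 for age in glp-1, and from 13 to 18 and 2 to 3 for the interaction. No pairing by replicate number was seen in the values: deviations of same-numbered libraries correlated from -0.144 to 0.146, beside -0.154 to 0.149 for others. Whether same-numbered libraries shared a culture or batch cannot be told from this. The fit with the replicate block called 37 higher and 3 lower at D1, 39 and 3 at D6, 8 and 27 for age in wild type, 16 and 2 for the interaction, and 17 and 22 for glp-1 with age. Promoter motifs were not searched here. Depth limits the values under about 1 FPKM (vha-18 in glp-1, cpr-2 at D1), which are approximate.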
